A study of Mus musculus with 2 samples.

Results

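*Klf2*, *Klf4*, *Klf6*, *Klf10* and *Nos3* were described across the endothelial cells and leukocytes of mouse livers with and without NASH (nonalcoholic steatohepatitis). They were taken by name, 5 of 16383 genes analysed, whatever their values. Their UMIs (unique molecular identifiers, counts of captured mRNA molecules) came from single-cell RNA sequencing of liver NPCs (nonparenchymal cells, the liver cells other than hepatocytes). The mice were male C57BL/6 animals, 8 weeks old, and were fed for 6 weeks. One group received a methionine- and choline-deficient (MCD) diet, which induces NASH with weight loss rather than obesity, and the control group received a control diet. Both libraries pooled the cells of 3 mice freed from the liver by enzymatic digestion, so there was 1 library per diet and no replicate. No test between the diets was therefore made, and all intervals in the text are 95% intervals that cover counting error only, not the spread between mice.

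The NASH library held 3893 cells, of which 3710 had at least 500 UMIs and 200 genes, and the control library held 4336, of which 4209 did. The kept cells had a median of 1654 UMIs in NASH and 1683 in control. Endothelial classes took 1903 cells in NASH and 1410 in control, and leukocyte classes took 1667 in NASH and 2491 in control. Of the cell labels, 21 occurred in both libraries, and they were treated as separate cells. The NASH table carries no gene names and was read in the order of the control header. In the 41 columns around each of the 5 genes, column totals of the libraries had correlations across genes of 0.977 to 0.988 in that order and at most 0.648 after a shift by 1 column.

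Clusters were named by marker genes. LSEC-like cells (liver sinusoidal endothelial cells) numbered 1542 in NASH and 1231 in control, in a cluster led by *Lyve1* and one led by *Aass*. Vascular endothelial cells (VECs) formed *Bmp4* VEC-like cells, with 258 in NASH and 102 in control, and *Adgrg6* VEC-like cells, with 103 in NASH and 77 in control. The endothelial identity was checked with *Cdh5* (VE-cadherin), in CPM (UMIs of a gene per 1000000 UMIs of its class in the genes analysed). *Cdh5* lay between 1395 and 1674 CPM in the 3 endothelial classes in NASH and between 1383 and 1480 in control. In lymphocytes, dendritic, monocyte or macrophage-like and neutrophil-like cells *Cdh5* lay between 24.0 and 123 CPM in NASH and between 22.9 and 102 in control, but Kupffer cell-like cells had 742 CPM in NASH and 898 in control.

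KLF proteins are zinc-finger transcription factors that bind CACCC and GC-rich DNA. In vascular endothelium, laminar blood flow activates the kinases MEKK3, MEK5 and ERK5, which act through MEF2 factors on the *Klf2* and *Klf4* genes. Both KLF proteins in turn raise *Nos3*, which encodes endothelial nitric oxide synthase (eNOS), and restrain inflammatory genes. Outside endothelium, *Klf2* holds naive T cells and B cells in a resting, recirculating state, and *Klf4* acts in monocyte differentiation. *Klf6* and *Klf10* are induced quickly by injury and by TGF-β in many cell types, and all 4 *Klf* genes can respond to tissue digestion as immediate early genes do.

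The genes lie on 5 chromosomes of GRCm38. *Klf2* spans chr8:72319033-72321656 on the plus strand, *Klf4* chr4:55527143-55532466 on the minus strand, *Klf6* chr13:5861482-5870394 on the plus strand and *Klf10* chr15:38291463-38300706 on the minus strand. *Nos3* spans chr5:24364810-24384474 on the plus strand. The opposite-strand antisense gene *Gm15587* overlaps it over 17423 bp and *Atg9b* over 294 bp. No source used here says whether the counting used strand, so reads of *Nos3* and *Gm15587* may not have been separated.

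The stretches upstream of *Klf2* and *Klf4* are shown because MEF2 factors are the known route from flow to these genes. The stretch of *Klf6* is set beside them. All stretches come from RefSeq promoters on GRCm38.p6, on the strand of the gene, and stop before the annotated transcript. Capitals mark matches to the searched letters on either strand.
Klf2, chr8:72318902-72319032: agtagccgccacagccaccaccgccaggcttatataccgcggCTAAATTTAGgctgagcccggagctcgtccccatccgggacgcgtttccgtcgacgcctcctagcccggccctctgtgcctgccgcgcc
Klf4, chr4:55532476-55532635: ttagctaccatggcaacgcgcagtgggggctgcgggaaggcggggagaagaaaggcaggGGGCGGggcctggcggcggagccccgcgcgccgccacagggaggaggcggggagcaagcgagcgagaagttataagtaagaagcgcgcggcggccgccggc
Klf6, chr13:5861329-5861481: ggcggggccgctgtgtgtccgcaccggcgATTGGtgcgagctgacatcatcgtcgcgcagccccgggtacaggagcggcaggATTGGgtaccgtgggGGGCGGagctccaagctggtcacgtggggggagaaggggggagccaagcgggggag
The *Klf2* stretch holds a match to the MEF2 letters CTANNNNTAG, at positions -118 to -109 counted from the RefSeq start. These letters occur on either strand in 3.20% of 32851 mouse promoters of 250 bases, and not in those of *Klf4* or *Klf6*. The *Klf4* and *Klf6* stretches hold the GC box GGGCGG, found in 32.7% of promoters, and the *Klf6* stretch holds CCAAT, found in 33.8%, as its reverse complement ATTGG. The letters CACCC, a KLF motif, were searched too and occur in 52.0% of promoters, and TATAAA in 12.4%. Outside the stretch shown, the 250 bases of *Klf2* hold GC boxes at -214 to -209 and -195 to -190. They also hold CACCC, as its reverse complement GGGTG, at -19 to -15. Further GC boxes of *Klf4* and CCAAT matches of *Klf6* lie upstream of the stretches shown. A match of letters is a description of the sequence and not a measured binding site.

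*Nos3* was higher in every endothelial class than in any leukocyte class, and *Klf6* was lower, whereas endothelial and leukocyte classes were interleaved for *Klf2*, *Klf4* and *Klf10*. The *Nos3* level in *Bmp4* VEC-like cells was 388 CPM in NASH and 267 in control. In *Adgrg6* VEC-like cells it had 271 CPM in NASH and 257 in control, and in LSEC-like cells 240 in NASH and 198 in control. The 3 endothelial classes thus took the first 3 places in both libraries. *Adgrg6* VEC-like cells lay below *Bmp4* VEC-like cells by a log2 ratio of -0.50 in NASH (-0.96 to -0.09) and -0.05 in control (-0.59 to 0.47), and did not differ from LSEC-like cells beyond counting error in either library. The leukocyte class next in order was neutrophil-like in NASH, with 55.0 CPM from 10 UMIs, and B cell-like in control, with 17.7 CPM from 14 UMIs. No *Nos3* UMI was found in 77 NK cell-like cells in NASH or in 101 dendritic cell-like cells in control.

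Over all endothelial cells together *Nos3* stood 19.5-fold above the leukocytes in NASH (15.5 to 25.1) and 32.9-fold in control (24.4 to 46.5). It was the gene of the 5 that lay at least 1.5 times higher in endothelium in either library, beside 29.9% of all genes with at least 50 UMIs in NASH and 26.2% in control. At least 1.5 times lower lay *Klf4* and *Klf6* in NASH, beside 27.4% of all genes, and *Klf2*, *Klf4* and *Klf6* in control, beside 30.7%. Without the 5% of cells with the highest doublet scores the *Nos3* ratio was 4.77 on the log2 scale in NASH, against 4.29 with them. In control it was 6.35 without these cells and 5.04 with them.

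*Klf2*, the flow-induced factor, was highest in B cell-like cells in both libraries, with 1835 CPM in NASH and 1874 in control. The endothelial classes took places 2, 5 and 6 of 10 in NASH, where *Adgrg6* VEC-like cells followed B cell-like cells with 1045 CPM. In control they took places 5, 6 and 9, and B cell-like, neutrophil-like, T cell-like and monocyte or macrophage-like cells stood above them, the last of these with an interval that overlapped that of *Adgrg6* VEC-like cells. Endothelial cells together had 744 CPM of *Klf2* in NASH and 473 in control, and leukocytes together had 563 in NASH and 727 in control. On the log2 scale endothelium lay above leukocytes by 0.40 in NASH (0.32 to 0.48), and in control the ratio was -0.62 (-0.71 to -0.53). The mixture of leukocytes differed between the libraries: B cell-like and neutrophil-like cells numbered 195 and 118 in NASH, and 627 and 444 in control. Its part in these ratios was not tested. With each cell given equal weight the log2 ratios were 0.07 in NASH and -1.09 in control.

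*Klf4* was highest in dendritic cell-like cells in NASH and in monocyte or macrophage-like cells in control. Its level was 524 CPM in dendritic cell-like cells, 481 in B cell-like cells and 343 in monocyte or macrophage-like cells in NASH, and 657, 353 and 887 in the same classes in control. The dendritic and B cell-like intervals overlap in NASH. Other myeloid classes were low, with 93.0 CPM in NASH and 82.9 in control in Kupffer cell-like cells and 60.5 in NASH and 39.2 in control, from 11 and 27 UMIs, in neutrophil-like cells. Among endothelial classes *Adgrg6* VEC-like cells were the highest, with 186 CPM in NASH and 257 in control. Endothelium lay below leukocytes by a log2 ratio of -1.27 in NASH and -0.81 in control. *Klf6* was highest in neutrophil-like cells, with 2894 CPM in NASH and 3298 in control, and the 3 endothelial classes held the last 3 places in both libraries, between 176 and 226 CPM in NASH and between 183 and 293 in control. *Klf10* was highest in neutrophil-like cells too, with 347 CPM in NASH and 317 in control. The other 9 classes lay between 72.1 and 129 CPM in NASH and between 66.8 and 201 in control, mostly with overlapping intervals. These orders are drawn in the plot of CPM by class.

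**Figure D1:**
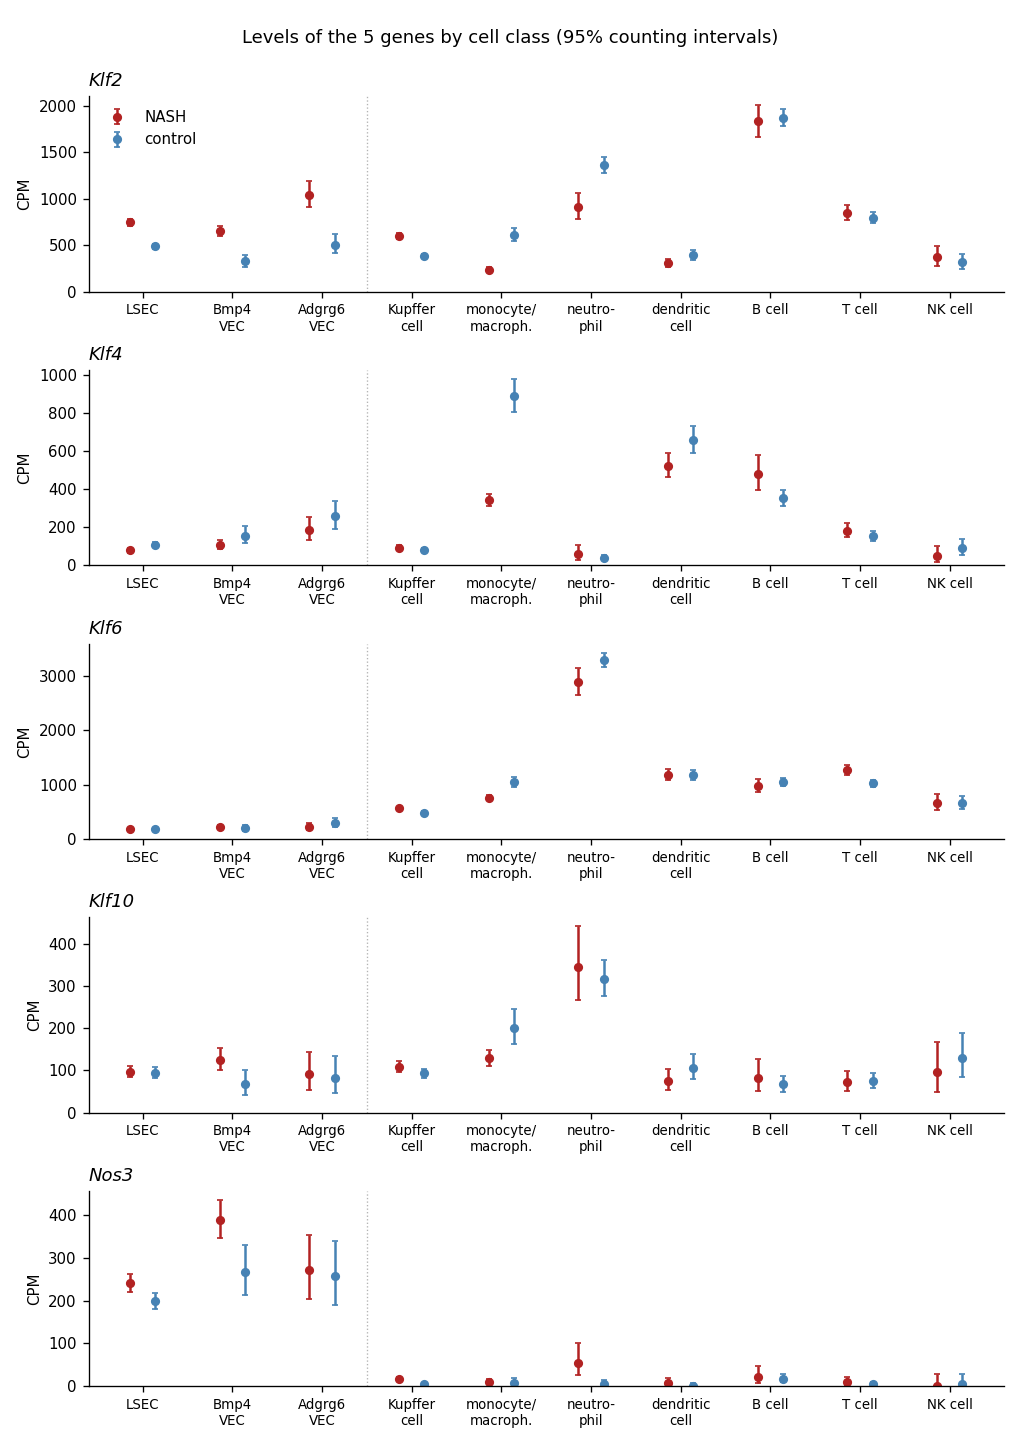
Levels of the 5 genes, in CPM, in 3 endothelial and 7 leukocyte classes, with the NASH library in red to the left of the control library in blue. Points are the UMI sums of 1 library each, bars are exact Poisson 95% intervals, and a dotted line separates endothelial from leukocyte classes: *Nos3* is high in the endothelial classes alone, while *Klf2* peaks in B cell-like cells and *Klf6* in neutrophil-like cells.

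Within the endothelium the classes differed in *Klf2* and *Klf4*. *Adgrg6* VEC-like cells, which carry the arterial gene *Efnb2* at 643 CPM in NASH and 617 in control, had more *Klf4* than LSEC-like cells by a log2 ratio of 1.25 in each library, with intervals from 0.68 to 1.76 in NASH and from 0.77 to 1.68 in control. For *Klf2* the same ratio was 0.49 in NASH (0.27 to 0.69) and 0.06 in control (-0.25 to 0.36). *Bmp4* VEC-like cells had less *Klf2* than LSEC-like cells, by log2 ratios of -0.20 in NASH and -0.56 in control. They had more *Nos3*, by 0.69 in NASH (0.48 to 0.90) and 0.44 in control (0.08 to 0.77). *Klf2* was lower in the *Lyve1*-led than in the *Aass*-led LSEC-like cluster, by -0.49 in NASH (-0.63 to -0.35) and -0.39 in control (-0.57 to -0.21). These clusters differed in depth, with medians of 1925.5 and 963 UMIs per cell over both libraries, and the part of depth was not tested.

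*Klf2* was higher in NASH than in control in all 3 endothelial classes. LSEC-like cells had 748 CPM in NASH (712 to 786, from 1614 UMIs) and 489 in control (461 to 518, from 1133 UMIs), a log2 ratio of NASH over control of 0.61 (0.50 to 0.72), computed after adding 0.5 UMI. *Bmp4* VEC-like cells had 652 CPM in NASH and 331 in control, a log2 ratio of 0.97 (0.67 to 1.30) from 501 and 104 UMIs. LSEC markers summed to 25028 CPM in *Bmp4* VEC-like cells in NASH and 22005 in control, a log2 ratio of 0.19, with 4 of 15 at least 1.5 times higher and 1 lower. Among them *Lyve1* had 254 CPM in NASH and 15.9 in control, and the part of this shift in the *Klf2* value was not tested. *Adgrg6* VEC-like cells had 1045 CPM in NASH and 509 in control, a log2 ratio of 1.03 (0.69 to 1.40) from 208 and 99 UMIs. The intervals of the 2 libraries do not overlap in any of the 3 classes.

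The *Klf2* ratio in LSEC-like cells was smaller in some subsets of the cells. NASH cells of this class held a median of 1216.5 UMIs and control cells 1594. In cells thinned to 1000 UMIs the log2 ratio was 0.39 (0.22 to 0.56), against 0.54 in the same cells before thinning. Among thinned cells with more immediate early UMIs than the median of 3, *Klf2* had 703 CPM in NASH and 604 in control, a log2 ratio of 0.22 (-0.02 to 0.46). Among the others it had 681 CPM in NASH and 478 in control, a log2 ratio of 0.51 (0.27 to 0.75). The intervals of these subsets overlap, and their difference was not tested. The ratios of these subsets in *Adgrg6* VEC-like cells were 1.54 and 0.40 (-0.28 to 1.10), and in *Bmp4* VEC-like cells 1.22 and 1.02.

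*Klf4*, which shares the MEF2 route and many targets with *Klf2*, lay on the other side. In LSEC-like cells it had 78.8 CPM in NASH from 170 UMIs and 109 in control from 253 UMIs, a log2 ratio of -0.47 (-0.76 to -0.18). *Bmp4* VEC-like cells had 105 CPM in NASH and 156 in control, a log2 ratio of -0.57 (-1.09 to -0.02), which was -1.19 in thinned cells. *Adgrg6* VEC-like cells had 186 CPM in NASH and 257 in control, and the interval of the ratio of -0.46 included 0 (-1.12 to 0.17). *Klf2* and *Klf4* thus had opposite signs in each endothelial class.

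*Klf6* differed little between the diets in endothelium, with log2 ratios of -0.06 in LSEC-like (-0.26 to 0.15), 0.11 in *Bmp4* VEC-like (-0.31 to 0.56) and -0.37 in *Adgrg6* VEC-like cells (-0.97 to 0.22). *Klf10* had 96.9 CPM in NASH and 94.1 in control in LSEC-like cells, and its log2 ratio of 0.04 had an interval from -0.24 to 0.32. Its level in *Bmp4* VEC-like cells was 125 CPM in NASH and 66.8 in control, a ratio of 0.88 (0.21 to 1.66) that rested on 96 and 21 UMIs. In *Adgrg6* VEC-like cells only 18 *Klf10* UMIs were counted in NASH and 16 in control.

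*Nos3*, the target of both flow-induced factors, was higher in NASH by smaller steps. Its log2 ratio was 0.28 in LSEC-like cells (0.09 to 0.46), from 518 UMIs in NASH and 459 in control. It was 0.53 in *Bmp4* VEC-like cells (0.18 to 0.90), from 298 UMIs in NASH and 84 in control. When cells were assigned by marker gates in place of clusters, the *Bmp4* VEC-like value was 0.048. The ratio in *Adgrg6* VEC-like cells was 0.08 (-0.50 to 0.66), from 54 UMIs in NASH and 50 in control.

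Read against all genes, 1 of the 5 (*Klf2*) was at least 1.5 times higher in NASH LSEC-like cells and none at least 1.5 times lower. Of the 6236 genes with at least 50 UMIs there, 4.76% were that much higher and 5.79% that much lower. Counting intervals lay above 0 for 14.2% of these genes and below 0 for 14.8%, so an interval apart from 0 was not rare. In *Bmp4* VEC-like cells *Klf2* and *Klf10* were at least 1.5 times higher, beside 8.12% of 3869 genes, and none of the 5 was that much lower, beside 7.55%. In *Adgrg6* VEC-like cells 4 of the 5 reached 50 UMIs, of which *Klf2* was at least 1.5 times higher, beside 7.25% of 1682 genes, and none lower, beside 7.02%.

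**Figure D2:**
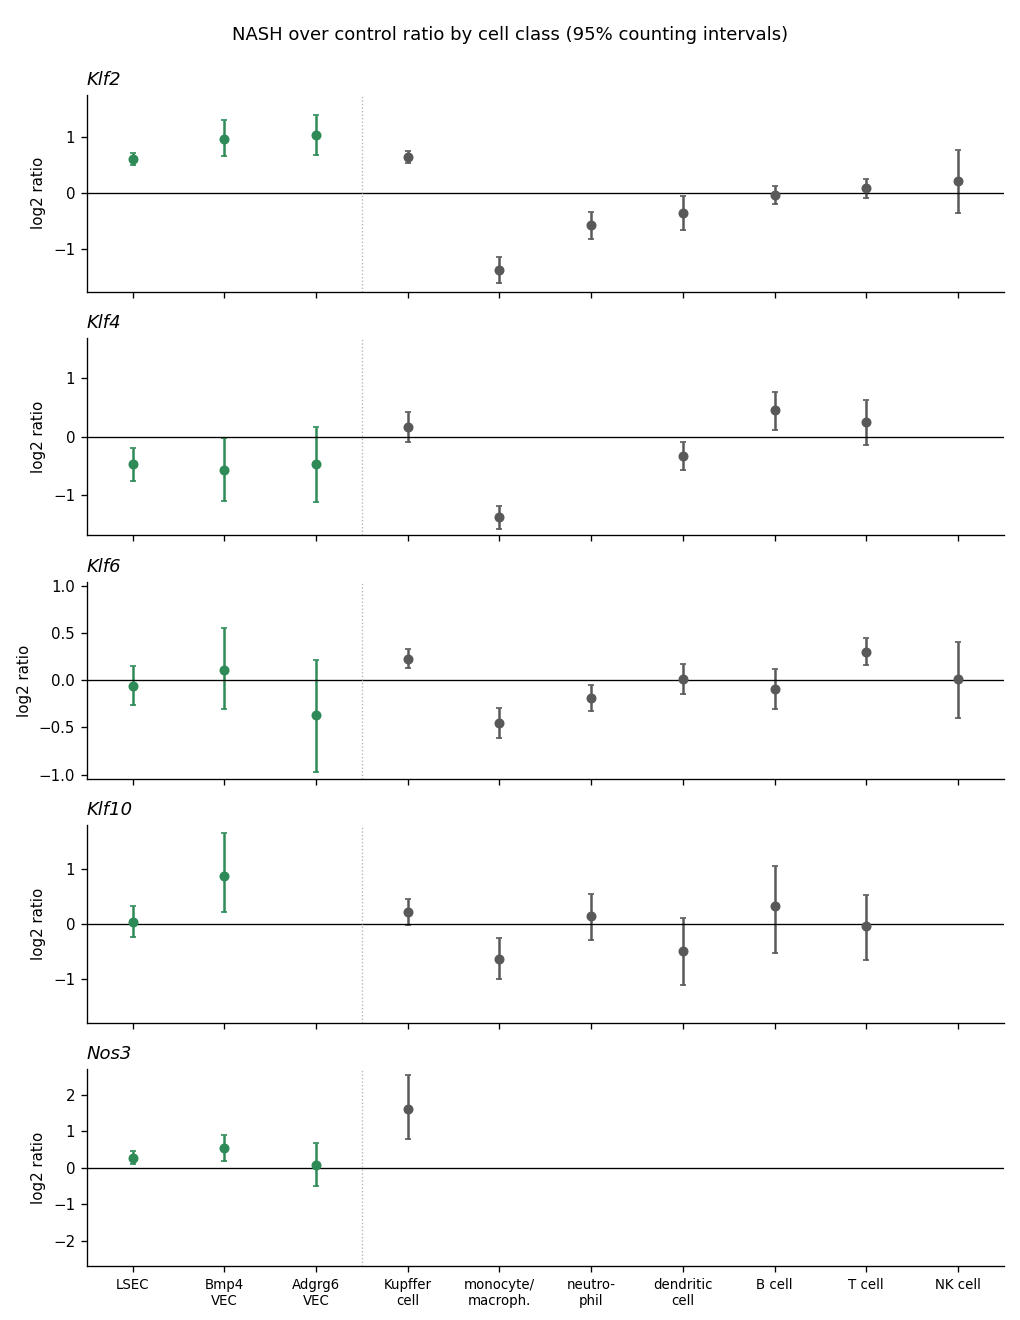
Log2 ratio of CPM, NASH over control, of each gene in each class with at least 50 UMIs of that gene, with endothelial classes in green and leukocyte classes in grey. Bars are exact binomial 95% intervals of the UMI sums, and 0 means equal levels: *Klf2* lies at 0.61 to 1.03 in the 3 endothelial classes, and at -1.37 in monocyte or macrophage-like cells.

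Within LSEC-like cells the same signs recurred. *Klf2* had 654 CPM in NASH and 452 in control in the *Lyve1*-led cluster, and 917 in NASH and 593 in control in the *Aass*-led cluster, log2 ratios of 0.53 and 0.63. The *Klf4* ratios were -0.43 and -0.58. *Nos3* differed in the *Lyve1*-led cluster, with 255 CPM in NASH and 195 in control and a ratio of 0.38 (0.16 to 0.60), whereas the *Aass*-led cluster had 214 in NASH and 206 in control (0.05, -0.29 to 0.40). These *Nos3* intervals overlap. The *Lyve1*-led cluster held 744 cells in NASH and 696 in control, and the *Aass*-led cluster 798 and 535.

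LSECs were also divided by *Kit*, a stem cell factor receptor, and *Msr1*, a scavenger receptor. In 571 NASH and 418 control cells with a *Kit* UMI and no *Msr1* UMI, *Klf2* had 705 CPM in NASH and 486 in control, a log2 ratio of 0.54, and *Klf4* a ratio of -0.65. In 247 NASH and 328 control cells with *Msr1* and without *Kit*, *Klf2* had 828 CPM in NASH and 515 in control, a ratio of 0.68. The *Klf4* ratio there was -0.69 with an interval that reached 0.01. *Nos3* was higher in *Kit* than in *Msr1* cells by a log2 ratio of 0.34 in NASH (-0.04 to 0.76) and 0.52 in control (0.16 to 0.88). The finer venous cluster led by *Cyp1b1*, with 42 cells in NASH and 32 in control, had 827 CPM of *Klf2* in NASH and 338 in control, a ratio of 1.28 (0.76 to 1.85). A larger finer cluster, led by *Lhx6*, was named venous too, with 489 cells in NASH and 163 in control. It held more cells than the *Bmp4* VEC-like class, so part of it came from outside that class. Its levels are not given here.

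Single cells showed how the *Klf2* UMIs were spread. Among LSEC-like cells thinned to 1000 UMIs (1002 in NASH, 940 in control), 41.1% had a *Klf2* UMI in NASH and 35.7% in control, and before thinning 52.3% and 49.5% of all such cells. Cells with 3 or more UMIs made up 6.09% in NASH and 3.72% in control. The variance of *Klf2* UMIs over their mean was 1.83 in NASH and 1.47 in control, where purely random capture gives 1. In *Bmp4* VEC-like cells 44.3% of thinned cells had a *Klf2* UMI in NASH and 24.7% in control, and 7.84% in NASH and 1.03% in control had 3 or more. In *Adgrg6* VEC-like cells these shares were 55.7% in NASH and 42.7% in control for 1 or more, and 12.4% in NASH and 3 of 75 cells in control had 3 or more. In all 3 classes both the share of cells with a *Klf2* UMI and the share with 3 or more were thus higher in NASH. These shares are given without intervals, and in *Adgrg6* VEC-like cells they rest on 97 cells in NASH and 75 in control.

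**Figure D3:**
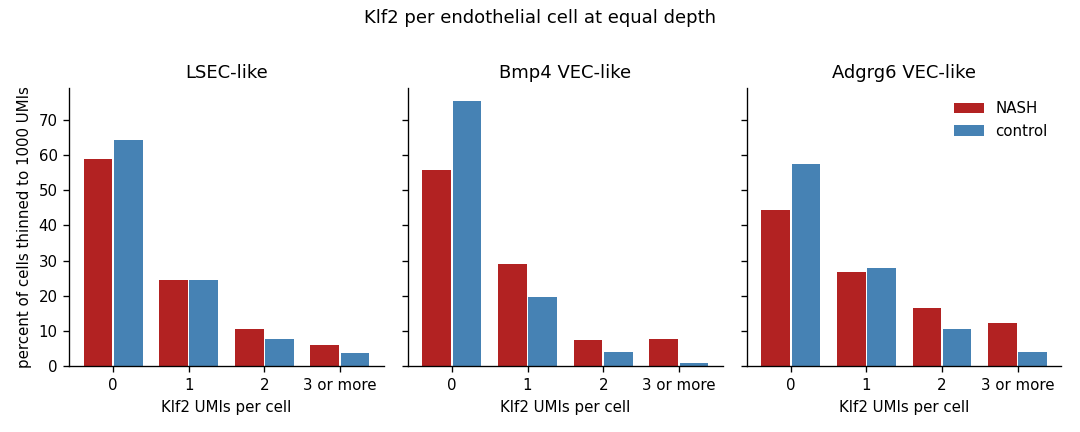
Percent of endothelial cells, each thinned to 1000 UMIs, that held 0, 1, 2 or at least 3 *Klf2* UMIs, by class, with NASH in red left of control in blue. The share without a UMI is 58.9% in NASH and 64.3% in control in LSEC-like cells, and the share with at least 3 is larger in NASH in all 3 classes.

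*Nos3* and *Klf4* gave mainly single UMIs per cell. In thinned LSEC-like cells 22.0% had a *Nos3* UMI in NASH and 16.6% in control, whereas without thinning the shares were 25.9% in NASH and 27.4% in control. In B cell-like cells, a class that should lack eNOS, 0.763% of thinned cells had a *Nos3* UMI in NASH and 1.83% in control, with median depths before thinning of 1146 UMIs in NASH and 1120 in control. A *Klf4* UMI was found in 7.68% of thinned LSEC-like cells in NASH and 9.68% in control, and in 9.14% and 14.8% before thinning.

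Cells with and without a *Klf2* UMI were compared within the thinned LSEC-like cells. In NASH 10.2% of cells with *Klf2* also had *Klf4* (7.45 to 13.5), and 5.93% of cells without it did (4.17 to 8.15). In control these shares were 11.6% and 8.61%. *Nos3* was found in 23.5% of cells with and 20.8% without *Klf2* in NASH, and in 19.0% and 15.2% in control, with overlapping intervals. *Ctgf*, a gene lowered by flow, was found in 28.6% of cells with and 32.0% without *Klf2* in NASH. At about 0.7 *Klf2* UMIs per cell or fewer, most cells without a UMI cannot be called negative.

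Leukocytes did not share a direction for *Klf2*. Kupffer cell-like cells, the resident macrophages of the sinusoid, had 598 CPM in NASH and 382 in control, a log2 ratio of 0.65 (0.54 to 0.76) that resembled LSEC-like cells in size. Their *Klf6* had 567 CPM in NASH and 482 in control, a ratio of 0.23 (0.13 to 0.34). Their *Nos3* ratio was 1.62 (0.79 to 2.55), on 41 UMIs in NASH and 17 in control, and 1.96 without the 5% of cells with the highest doublet scores. Markers of any endothelium summed to 1779 CPM in these cells in NASH and 1663 in control, 3 of the 8 with at least 50 UMIs were at least 1.5 times higher, and LSEC markers had a log2 ratio of 0.28. Their part in the *Nos3* value was not tested. *Klf2* and *Nos3* were thus 2 of 5 genes at least 1.5 times higher there, beside 6.04% of all genes.

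Monocyte or macrophage-like cells showed the reverse. *Klf2* had 236 CPM in NASH and 611 in control, a log2 ratio of -1.37 (-1.61 to -1.14), and *Klf4* had 343 in NASH and 887 in control, also -1.37 (-1.57 to -1.18). *Klf10* had 129 CPM in NASH and 201 in control (-0.64, -1.01 to -0.26), and *Klf6* had 763 in NASH and 1045 in control (-0.45). Of 4 genes with at least 50 UMIs, 3 were at least 1.5 times lower, beside 14.7% of all genes in this class. Immediate early genes summed to 15058 CPM in NASH and 19898 in control there, a ratio of -0.40 whose part was not tested.

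The makeup of that class differed between the libraries. A finer cluster led by *F13a1*, a gene of classical monocytes, held 198 cells in NASH and 68 in control, and had 187 CPM of *Klf2* in NASH and 480 in control, a log2 ratio of -1.36. A cluster led by *Ace*, which rested on too few markers to be named, held 44 and 50 cells and had 952 CPM in NASH and 1299 in control, a ratio of -0.45 (-0.83 to -0.07). A cluster led by *Mmp13* held 96 and 30 cells, with 162 CPM in NASH and 180 in control (-0.17, -0.89 to 0.65). For *Klf4* the first of these had 365 CPM in NASH and 868 in control, and the second 1220 in NASH and 1682 in control. Both the *F13a1*-led and the *Ace*-led cells were thus lower in NASH, and the *Ace*-led cells, which held the most *Klf2* of the 3, were fewer among them.

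**Figure D4:**
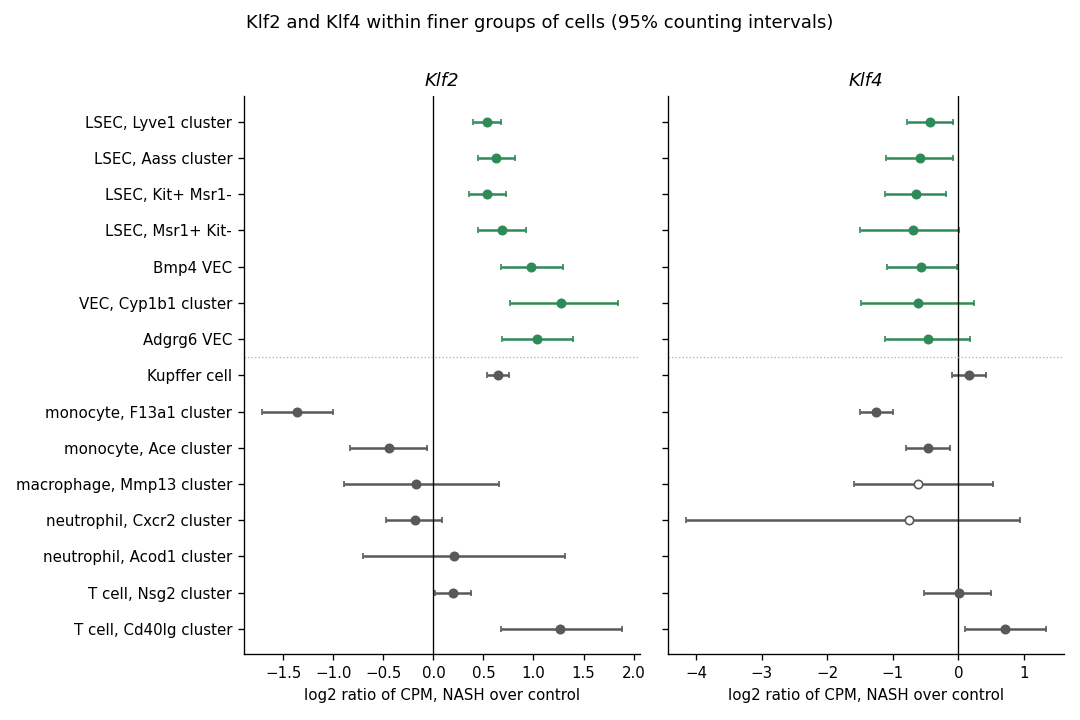
Log2 ratios, NASH over control, of *Klf2* and *Klf4* in 15 finer groups of endothelial cells and leukocytes. Bars are exact binomial 95% intervals and open points mark groups with under 50 UMIs, and *Klf2* is at -1.36 in the *F13a1*-led monocyte or macrophage cluster and at 1.26 in the *Cd40lg*-led T cell cluster.

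Neutrophil-like cells had 913 CPM of *Klf2* in NASH and 1362 in control, a log2 ratio of -0.57 (-0.82 to -0.34), and 2894 of *Klf6* in NASH and 3298 in control (-0.19). Within finer clusters the *Klf2* difference was smaller. The cluster led by *Cxcr2*, with 70 cells in NASH and 429 in control, had 1228 CPM in NASH and 1401 in control (-0.19, -0.47 to 0.08). The cluster led by *Acod1*, with 48 cells in NASH and 15 in control, had 520 in NASH and 438 in control. The *Nos3* level of neutrophil-like cells came from 10 UMIs in NASH and 4 in control. Markers of any endothelium summed to 1937 CPM in these cells in NASH and 463 in control, and 4 of the 4 with at least 50 UMIs were higher by at least 1.5 times. Their part was not tested.

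In dendritic cell-like cells *Klf2* had 308 CPM in NASH and 392 in control (-0.35, -0.65 to -0.05), and *Klf4* 524 in NASH and 657 in control (-0.33, -0.56 to -0.10). B cell-like cells did not differ in *Klf2* beyond counting error (-0.03). Their *Klf4* had 481 CPM in NASH and 353 in control, a log2 ratio of 0.45 (0.12 to 0.76). T cell-like cells had 850 CPM of *Klf2* in NASH and 799 in control (0.09), and *Klf6* of 1270 in NASH and 1029 in control (0.30, 0.16 to 0.45). NK cell-like cells had 374 CPM of *Klf2* in NASH and 322 in control (0.22), with 47 and 65 UMIs.

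T cell-like cells held a wide spread of *Klf2*. The cluster led by *Nsg2* had 1555 CPM in NASH and 1358 in control. The cluster led by *Cd40lg*, which encodes a ligand of activated helper T cells, had 227 in NASH and 93.9 in control, a log2 ratio of 1.26 (0.68 to 1.88) on 65 and 39 UMIs. The *Nsg2*-led cluster lay above the other by log2 ratios of 2.77 in NASH and 3.84 in control. Of the genes among the 5 with at least 50 UMIs in the class, none passed 1.5 times either way in neutrophil-like, B cell-like, T cell-like, NK cell-like or dendritic cell-like cells as a whole, where 39.7%, 14.1%, 11.2%, 14.8% and 13.2% of all genes did.

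Genes upstream and downstream of these factors were read in LSEC-like cells from lists of known roles. The lists were chosen with earlier results of these data known, so counts from them are a description. Of all genes in LSEC-like cells, 4.76% were at least 1.5 times higher in NASH and 5.79% that much lower. Among shear sensors 2 of 19 genes were at least 1.5 times higher in NASH and 1 lower, and the median log2 ratio was 0.10, beside -0.01 for all genes. *Itga5*, an integrin subunit, had 352 CPM in NASH and 201 in control (0.81), and *Itgb3* a ratio of 0.63, while *Adgrg1* had a ratio of -0.69. *Pecam1* and *Cdh5*, the junctional sensors, stood at 0.12 and -0.09, *Piezo1*, a mechanically gated channel, at 0.34, and *Kdr* at -0.29.

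In the branch from MEKK3 to MEF2, 1 of 14 genes was at least 1.5 times higher, and the median was -0.04. That gene was *Mapk7*, which encodes ERK5, with 35.2 CPM in NASH and 17.3 in control, a log2 ratio of 1.02 (0.46 to 1.62) from 76 and 40 UMIs. *Map3k3* (MEKK3) stood at -0.04, *Map2k5* (MEK5) at -0.28 and *Mef2a* at -0.35. *Heg1*, the receptor that anchors the CCM complex that restrains MEKK3, stood at 0.45, and *Krit1* of that complex at 0.41. Of 6 other *Klf* genes with at least 50 UMIs none passed 1.5 times, and they ran from -0.39 for *Klf13* to 0.36 for *Klf11*.

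Genes that laminar flow lowers in cultured endothelium were mostly higher in NASH, although *Klf2* was higher too. In LSEC-like cells 7 of the 9 measured were at least 1.5 times higher, beside 4.76% of all genes, and none lower. Their median log2 ratio was 1.72, in a list chosen with earlier results of these data known. *Ctgf*, a matricellular protein and YAP target, had 693 CPM in NASH and 98.9 in control, a ratio of 2.81 (2.61 to 3.02). *Edn1*, the vasoconstrictor endothelin, had 56.6 CPM in NASH and 10.4 in control (2.42), and *Bmp4* had 47.3 in NASH and 9.93 in control (2.23). *Ccl2*, a monocyte chemokine, stood at 2.02, *Pdgfb* at 1.72, *Cyr61* at 0.69, *Adm* at 0.68, *Angpt2* at 0.40 and *Icam1* at 0.03. With at least 200 UMIs asked of each gene, 3 of 5 were that much higher. *Edn1* and *Bmp4* also mark venous VECs, and the other 7 markers of that class summed to 190 CPM in NASH and 76.4 in control in LSEC-like cells (1.31, 1.06 to 1.58). Their part in the list was not tested.

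Genes that laminar flow raises did not follow *Klf2* upward. Of 7 measured in LSEC-like cells none was at least 1.5 times higher and 1 was lower, with a median of -0.26. *Plpp3*, a lipid phosphatase controlled by KLF2 in cultured endothelium, had 2020 CPM in NASH and 4294 in control, a log2 ratio of -1.09 (-1.14 to -1.04). *Gja4*, which encodes connexin 37, stood at -0.53, *Nqo1* at -0.35, *Nfe2l2* at -0.26, *Aqp1* at -0.14, *Hmox1* at 0.09 and *Cav1* at 0.26.

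Of 14 measured eNOS partners none passed 1.5 times in LSEC-like cells, and the median was -0.03. *Nostrin*, which moves eNOS away from the membrane, had 179 CPM in NASH and 269 in control (-0.58). *Gchfr*, the feedback regulator of the enzyme that makes the eNOS cofactor, stood at -0.54, *Calm2* at -0.51 and *Prkaa1* at 0.35.

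**Figure D5:**
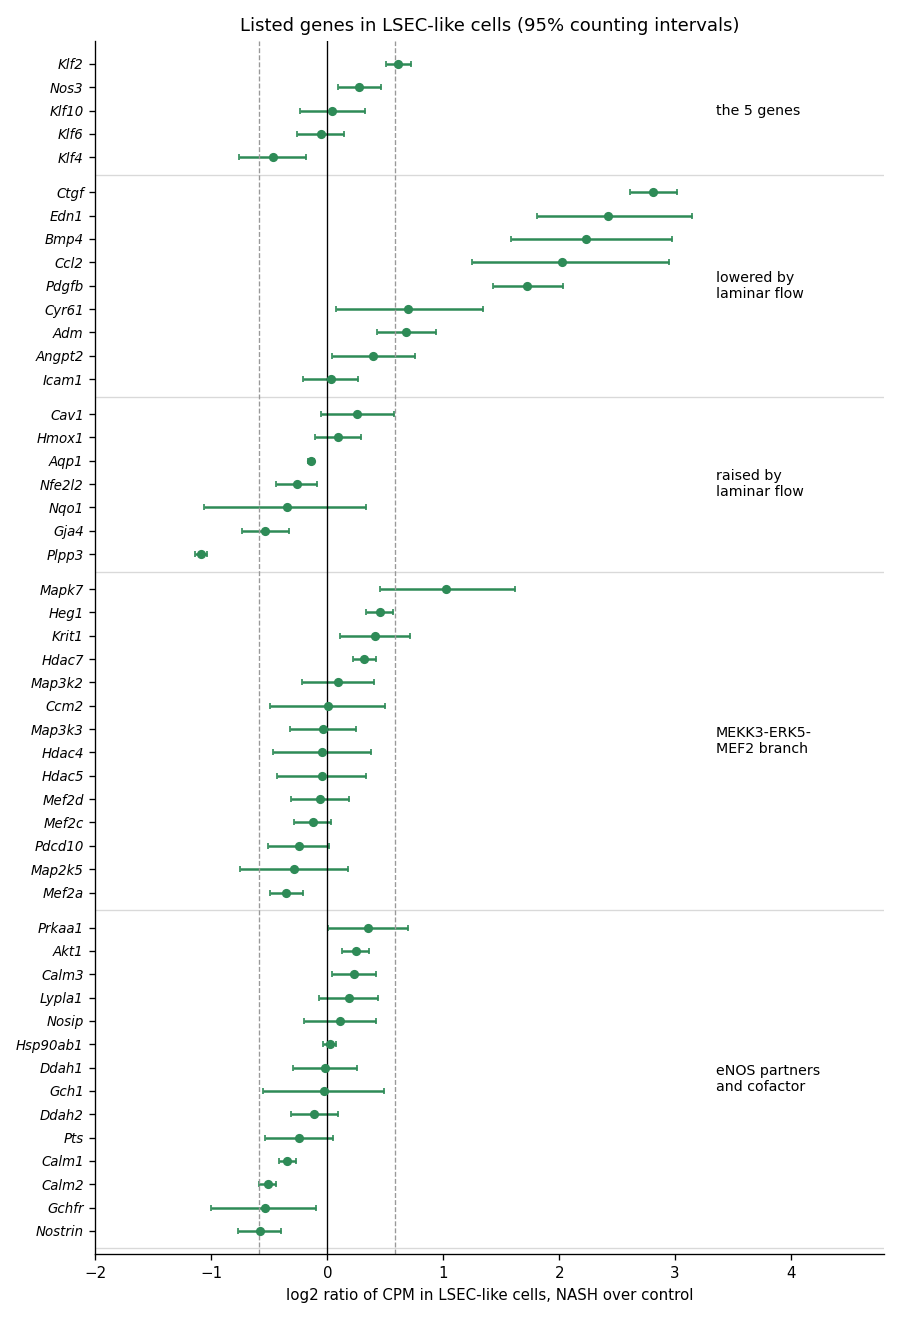
Log2 ratios, NASH over control, in LSEC-like cells of the 5 genes and of genes listed as lowered by laminar flow, raised by laminar flow, in the MEKK3-ERK5-MEF2 branch and as eNOS partners, for genes with at least 50 UMIs. Bars are exact binomial 95% intervals and dashed lines mark 1.5 times: 7 of 9 genes lowered by flow lie beyond the upper line, and *Plpp3* lies at -1.09.

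The VEC-like classes showed a part of this. In *Bmp4* VEC-like cells 4 of 7 measured genes lowered by flow were at least 1.5 times higher, beside 8.12% of all genes, and none lower. Their median was 0.59, beside -0.01 for all genes. *Ctgf* had 2431 CPM in NASH and 830 in control (1.55), and *Adm* stood at 1.60, but *Edn1* had 848 in NASH and 1117 in control (-0.40). *Bmp4* itself was among the 4, at 0.59, and leads this cluster. Both *Bmp4* and *Edn1* are among the markers that named the class. Of 8 measured genes raised by flow, none was that much higher and 3 were lower, beside 7.55% of all genes, with a median of -0.57. They were *Cyp1b1*, a cytochrome P450 (-1.53), *Gja4* (-1.38) and *Nqo1* (-1.37). *Cyp1b1* leads the finer venous cluster named above, with 829 CPM there and 3.14 in the other cells. That cluster held 42 cells in NASH and 32 in control, beside 258 and 102 in the *Bmp4* VEC-like class. The part of this makeup in the 3 ratios was not tested. In *Adgrg6* VEC-like cells *Edn1* was the one measured gene lowered by flow and had 111 CPM in NASH and 365 in control, a log2 ratio of -1.70 (-2.48 to -1.02), on the other side of 0 from LSEC-like cells. Its UMIs were 22 in 11 of 103 cells in NASH and 71 in 19 of 77 cells in control. *Edn1* also marks venous VECs, and the other 7 markers of that class summed to 367 CPM in NASH and 617 in control in *Adgrg6* VEC-like cells (-0.75, -1.19 to -0.32). The part of these markers in the *Edn1* value was not tested. *Gja4* was the 1 of 5 measured genes raised by flow past 1.5 times, at -0.88.

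Immediate early and heat shock genes, which tissue digestion can induce, had a higher summed level in NASH in all 3 endothelial classes, although most single genes did not pass 1.5 times. In LSEC-like cells 6 of 31 were at least 1.5 times higher in NASH, beside 4.76% of all genes, and 1 lower, beside 5.79%. Their median was 0.24. Heat shock genes summed to 2896 CPM in NASH and 2149 in control, a log2 ratio of 0.43, and immediate early genes to 4252 in NASH and 3558 in control (0.26). *Hspa1b* stood at 1.29 and *Cebpd* at 1.07, but *Fos* had 121 CPM in NASH and 144 in control (-0.25). Of the list, 6 of 27 genes were that much higher in *Bmp4* VEC-like cells, beside 8.12% of all genes, and none lower, beside 7.55%. In *Adgrg6* VEC-like cells 4 of 18 were that much higher, beside 7.25% of all genes, and none lower, beside 7.02%. The heat shock and immediate early ratios were 0.29 and 0.19 in *Bmp4* VEC-like cells, 0.58 and 0.23 in *Adgrg6* VEC-like cells and 0.59 and 0.37 in Kupffer cell-like cells. In B cell-like cells the *Klf2* ratio was -0.03 (-0.19 to 0.12). The heat shock and immediate early ratios there were 0.78 and 0.09, and in neutrophil-like cells 0.60 and -0.34. The part of this response in the *Klf2* values was not tested beyond the split by immediate early UMIs given above.

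The genes most alike in pattern were sought over 20 points, 10 classes in each of both libraries, among 6777 genes with at least 200 UMIs, by the correlation of log2 CPM. The points share libraries and cell sources, so the values are a description. For *Nos3* the first 5 were *Grb10*, *Cavin2*, *Msrb3*, *Nid1* and *Gata4*, all at 0.97, of which *Gata4* is a transcription factor of LSEC identity. For *Klf6* they were *Fos* at 0.97, *Fosb* and *Ier5* at 0.95, *Btg2* at 0.94 and *Nfkbiz* at 0.93, and all but *Nfkbiz* were in the immediate early list. *Klf10* was nearest *G0s2* at 0.92 and *Fosl2* at 0.87. *Klf4* was nearest *Inpp5f* at 0.89 and *Cs* at 0.84, and *Klf2* nearest *Map4k2* at 0.84 and *Angel2* at 0.82. Among the 5 genes themselves *Klf6* and *Nos3* had -0.70, *Klf6* and *Klf10* 0.51, and *Klf2* and *Klf4* -0.04.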

How the data were processed

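The deposited tables hold UMI counts per gene and cell, made by the authors with the BD Rhapsody whole transcriptome pipeline on GRCm38 and not normalized. No source used here names their annotation, and positions came from GENCODE M21. Genes after *Rad54l2* in the alphabet, mitochondrial genes among them, were not analysed here, so totals cover part of each library and no mitochondrial filter was applied. CPM values, and so the order of classes, rest on these partial totals. The effect of the genes left out on comparisons between classes was not tested. The NASH library held 9326723 UMIs and the control library 11452972.

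Cells with at least 500 UMIs and 200 genes were clustered with Seurat 5.3.0 in R 4.3.3 (SeuratObject 5.2.0, 2000 variable genes, 50 principal components, resolution 0.6) after removal of 24 *Klf*, *Nos3*, immediate early and heat shock genes from the variable genes. The clusters were named from at least 3 markers among 50 leading genes. UMIs were summed per class and library and divided by the class total (CPM), with exact Poisson intervals. Log2 ratios used 0.5 added UMI and exact binomial intervals, and shares Clopper-Pearson intervals. No p-value was computed, since each diet has 1 library. Whole-table counts used genes with at least 50 UMIs and a threshold of 1.5 times. Scripts used Python 3.11.15, numpy 2.4.6, scipy 1.17.1, pandas 2.3.3 and matplotlib 3.10.9, and were tested on simulated data.

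Doublets were kept. Scrublet (scanpy 1.11.5) marked 6 cells at its automatic threshold and so did not work, and leaving out the 5% with the highest scores was added after seeing the data. The genes and lists were chosen with earlier results of these data known. The text names the 5 genes, up to 4 genes per list with the largest ratios either way in LSEC-like cells, the 5 genes of most alike pattern and leading genes of clusters. Other listed genes were named by role after their values were seen. RefSeq promoters matched 3 of the 5 genes. Alternatives were other cell filters, clusterings, gates, scalings and gene minimums.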

Additional observations from a re-analysis of the deposited data

Results flagged for a closer look

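The same diet contrast gave ratios of opposite sign in different cell classes for the *Klf* genes, each with a counting interval apart from 0. With 1 library per diet the difference between classes was not tested. The log2 ratio of *Klf2*, NASH over control, was 0.61 in LSEC-like, 0.97 in *Bmp4* VEC-like, 1.03 in *Adgrg6* VEC-like and 0.65 in Kupffer cell-like cells. It was -1.37 in monocyte or macrophage-like, -0.57 in neutrophil-like and -0.35 in dendritic cell-like cells.

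For *Klf4* the ratio was 0.45 in B cell-like cells, and it was -0.47 in LSEC-like, -0.57 in *Bmp4* VEC-like, -1.37 in monocyte or macrophage-like and -0.33 in dendritic cell-like cells. For *Klf6* it was 0.23 in Kupffer cell-like and 0.30 in T cell-like cells, and -0.45 in monocyte or macrophage-like and -0.19 in neutrophil-like cells. For *Klf10* it was 0.88 in *Bmp4* VEC-like and -0.64 in monocyte or macrophage-like cells.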

How the results depend on the processing

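No paired analysis was possible because each diet has 1 library and no replicate, and for the same reason no replicate could be left out. Over the alternatives, 167 of the diet ratios in endothelial classes stayed within their main interval and 15 moved beyond it. None whose main interval lay apart from 0 changed sign. Ratios whose interval held 0 did, such as *Klf6* in *Bmp4* VEC-like cells, at 0.11 and at -1.15 above the median of immediate early UMIs, and *Klf6* in LSEC-like cells, at -0.06 and at 0.21 with marker gates. In leukocyte classes 250 stayed, 9 moved and 1 whose interval lay apart from 0 changed sign, the *Klf4* ratio of B cell-like cells, which was -0.30 with marker gates that took 2 NASH and 28 control cells.

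*Klf2* in LSEC-like cells had a log2 ratio of 0.39 in thinned cells and 0.22 in cells above the median of immediate early UMIs. *Klf4* in *Bmp4* VEC-like cells had -1.19 in thinned cells and -2.03 at or below that median. With marker gates *Nos3* in *Bmp4* VEC-like cells had 0.048 and *Klf2* in *Adgrg6* VEC-like cells 0.00076. The *Adgrg6* gate took 41 NASH and 53 control cells, of which 8 and 7 lay in the class of that name, and their *Cdh5* level was 168 CPM in NASH and 116 in control. *Klf2* in *Adgrg6* VEC-like cells had 1.54 above and 0.40 at or below the median of immediate early UMIs. The endothelial over leukocyte ratio of *Nos3* without the highest 5% of doublet scores was 4.77 in NASH and 6.35 in control.

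Of genes lowered by flow, 3 of 5 with at least 200 UMIs were at least 1.5 times higher in LSEC-like cells. In *Bmp4* VEC-like cells 2 of 5 were with gates and 2 of 4 at 200 UMIs. Of genes raised by flow, 2 were that much lower in LSEC-like cells at resolution 1.0, with gates, with a minimum of 1 UMI and as a mean over cells. In *Bmp4* VEC-like cells 5 were lower with the 5 genes kept among the variable genes, without the highest doublet scores and with a minimum of 1 UMI. Precision is limited by UMIs per class, from 16 for *Klf10* in control *Adgrg6* VEC-like cells to 1614 for *Klf2* in NASH LSEC-like cells.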
